A study of Drosophila melanogaster with 2 samples.

Results

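A list of 10 Drosophila genes of muscle attachment and integrin adhesion was examined for regions bound by Lbe-GFP, a GFP-tagged form of the homeodomain transcription factor Ladybird early. The genes were taken from a list made by function (if, mew, mys, Msp300, kon, Con, sr, Tsp, Ilk and rhea), and all 10 were found among the 13945 protein-coding genes of the chromosome arms. A region was placed at a gene when its summit lay in the gene body or within 2 kb of it. By this rule 18 of the 4753 peaks past the authors' irreproducible discovery rate (IDR) threshold lay at the 10 genes, and 7 genes had at least 1.

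The assay was ChIP-seq, sequencing of DNA that comes down with the tagged protein, on whole embryos of strain lbe-GFP, aged 0 to 24 h and of pooled sexes. One label names an antibody against GFP and another gives the antibody as lbe, and a control was named for the calling but not analysed here. The series has 1 group of 2 biological replicates from 1 transgenic line, in which GFP sits at the C-terminus of Lbe. Whole embryos were used, so a site bound in few cells and a site bound weakly in many cells cannot be told apart. Replicates, and the listed genes against all genes, are therefore the comparisons the design allows. Each region carries a signal, the value that the authors' caller gave it against a control. Its scale is not stated in the sources used here, so signals are compared only within a list, mostly as ranks, where rank 1 is the strongest. The files hold no read counts, and read depth is unknown.

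Embryonic muscles of the fly are anchored to tendon cells of the epidermis by integrins, heterodimers of an alpha and a beta chain that grip extracellular matrix on the outside and the actin cytoskeleton on the inside. Talin and integrin-linked kinase are among the proteins that tie the integrin tail to actin. Tendon cells are specified by the transcription factor Stripe and secrete matrix ligands, while muscles carry surface proteins that guide them to their tendon. Lbe is known for its part in specifying a lateral muscle and heart cells in the same embryos.

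The strongest IDR peak of each of the 7 genes is shown first. Each is the dm6 plus strand, 5′ to 3′, within 100 bp of the summit and without annotated UTR bases. Capitals mark any of 10 words searched on both strands, none of which contains another. They are the homeodomain core TAATTA, a relative of it spelled TAACTA, the repeats GAGAGA (bound by GAGA factor) and CACACA, and the E-box CAGCTG. The others are TATCGATA (the DNA replication-related element), GGTCACAC (a core promoter motif), the site AGATAA for zinc-finger factors of the serpent and pannier kind, the site CAGGTA for the early embryonic factor Zelda, and TCAAGTG, which homeodomain proteins such as Tinman recognise. The sequences come from the RefSeq copy of the release 6 genome.
if (chrX:16751013-16751213): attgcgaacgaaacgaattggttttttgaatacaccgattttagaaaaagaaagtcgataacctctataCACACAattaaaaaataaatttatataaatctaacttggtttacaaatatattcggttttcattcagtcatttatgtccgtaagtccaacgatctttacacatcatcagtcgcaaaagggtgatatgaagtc
mew (chrX:13251415-13251615): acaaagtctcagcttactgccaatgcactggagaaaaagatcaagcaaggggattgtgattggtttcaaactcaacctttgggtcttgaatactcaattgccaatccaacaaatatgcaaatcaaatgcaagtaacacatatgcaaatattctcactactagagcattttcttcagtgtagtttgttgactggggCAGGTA
mys (chrX:8061603-8061644): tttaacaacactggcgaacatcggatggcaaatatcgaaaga
Msp300 (chr2L:5108114-5108314): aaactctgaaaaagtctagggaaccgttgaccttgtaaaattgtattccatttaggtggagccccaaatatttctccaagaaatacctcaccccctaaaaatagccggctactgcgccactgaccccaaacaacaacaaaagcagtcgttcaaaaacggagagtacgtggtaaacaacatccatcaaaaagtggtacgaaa
sr (chr3R:18125142-18125342): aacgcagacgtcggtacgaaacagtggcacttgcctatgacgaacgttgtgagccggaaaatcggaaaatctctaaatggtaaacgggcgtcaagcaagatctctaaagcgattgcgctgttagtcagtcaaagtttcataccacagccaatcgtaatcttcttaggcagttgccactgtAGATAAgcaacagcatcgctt
Tsp (chr2L:6698481-6698681): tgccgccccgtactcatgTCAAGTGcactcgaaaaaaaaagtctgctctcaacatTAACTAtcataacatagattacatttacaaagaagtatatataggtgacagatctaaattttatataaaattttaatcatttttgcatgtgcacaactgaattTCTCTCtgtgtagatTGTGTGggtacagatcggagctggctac
rhea (chr3L:8546467-8546667): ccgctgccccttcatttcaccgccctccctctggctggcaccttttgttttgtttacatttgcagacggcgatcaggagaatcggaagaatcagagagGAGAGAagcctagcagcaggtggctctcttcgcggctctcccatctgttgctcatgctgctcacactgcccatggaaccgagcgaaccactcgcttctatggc

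The repeat CACACA stood at if. The Tsp window held the same repeat and GAGAGA, both on the minus strand, as well as the Tinman site and the relative of the homeodomain core. The Zelda site stood at the edge of the mew window, the serpent site at sr, and the first of the repeats in the rhea window. The Msp300 window held none of the words. The mys stretch is short because most of its window is 5′ UTR, and it leaves out the summit. It too held none of the words, while the full mys window held the E-box, in the bases left out.

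The integrin subunit genes if, mew and mys, all X-linked, accounted for 10 of the 18 peaks, of which 8 lay in the gene bodies and 2 past the 3′ end of if. The X held 55.6% of the 18 peaks, all at these genes, against 16.2% of all IDR peaks. No other listed gene is X-linked, so the first share depends on which genes were listed. The gene mew encodes the alphaPS1 chain, which works on the tendon side of the junction, and it had 5 IDR peaks in its 44.1 kb. Over protein-coding genes of all lengths, 1.03% had 5 or more, and the share among genes as long as mew was not computed. The mean number of IDR summits rose with gene length. It was 0.255 below 1000 bp and 1.37 between 20000 and 50000 bp, the range that holds mew. All 5 mew summits lay in introns. The strongest (X, 13251392 to 13251617) had a signal of 307 and rank 470, lay in the first intron of all 6 transcripts, and stood 5668 bp downstream of the nearest mew transcription start site (TSS). It ranked 837 in replicate 1 and 244 in replicate 2, and the replicate summits were 19 bp and 0 bp from the IDR summit. This was the best-supported intronic site of the set.

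The other mew peaks were weaker. The peak nearest the promoter (13254641 to 13254775) had a signal of 148 and rank 2337, 2527 bp into the gene from the nearest TSS, with rank 2450 in replicate 1 and 3266 in replicate 2. A peak of signal 144 and rank 2480 (13234051 to 13234460) ranked 3360 in replicate 1 and 3261 in replicate 2. Another of signal 126 and rank 3165 (13245932 to 13246056) ranked 3475 in replicate 1 and 3545 in replicate 2. The last peak (13229136 to 13229545, signal 103, rank 4437) was near the end of the IDR list. It ranked 6134 in replicate 1 and had no replicate 2 summit within 200 bp. These last 3 summits lay closer to the TSS of the nested gene CG32639, at 2310, 9452 and 7225 bp, than to a mew TSS, at 22927, 11165 and 27842 bp.

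The gene if encodes alphaPS2, the alpha chain on the muscle side, and 3 IDR summits were counted at it, but only 1 lay in the gene. That summit (peak X, 16761535 to 16761944, signal 138, rank 2681) was in intron 5 of all 4 transcripts, 19334 bp from the nearest if TSS. It ranked 3337 in replicate 1 and 3126 in replicate 2. The strongest peak at if (16750908 to 16751317, signal 180, rank 1533) lay 1076 bp past the 3′ end, in an intron of the neighbouring gene goe. It was among the strongest regions of both replicates, at ranks 1680 and 1897. The third (16751696 to 16752105, signal 109, rank 4029) was 9 bp from the goe TSS and ranked 2826 in replicate 1 but 7253 in replicate 2. By nearest TSS, none of the 3 summits went to if. No IDR peak lay at a promoter of if. The strongest of its pooled regions outside the IDR list was intronic, with a signal of 72.4 and rank 7504, and the strongest at a promoter had a signal of 52.5 and rank 11353.

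The gene mys encodes betaPS, the beta chain shared by both dimers, and it had 2 IDR peaks in 8.59 kb. One (8061498 to 8061907, signal 135, rank 2803) had its summit 58 bp downstream of the single mys TSS. The other (8063152 to 8063561, signal 129, rank 3038) lay in the first intron of all 4 transcripts, 1712 bp from the TSS, and ranked 3586 in replicate 1 and 2126 in replicate 2. Support for the promoter peak depended on the match. The nearest replicate 1 summit, 58 bp away, ranked 25260, whereas a replicate 1 region with its summit at 8061554, also within 200 bp, ranked 2942. In replicate 2 the summit coincided, at rank 1723. A further pooled region (summit 8061073, signal 92.4, rank 5271) fell short of the lowest IDR signal of 98.7, and was nearest to the TSS of fs(1)h.

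**Figure D1:**
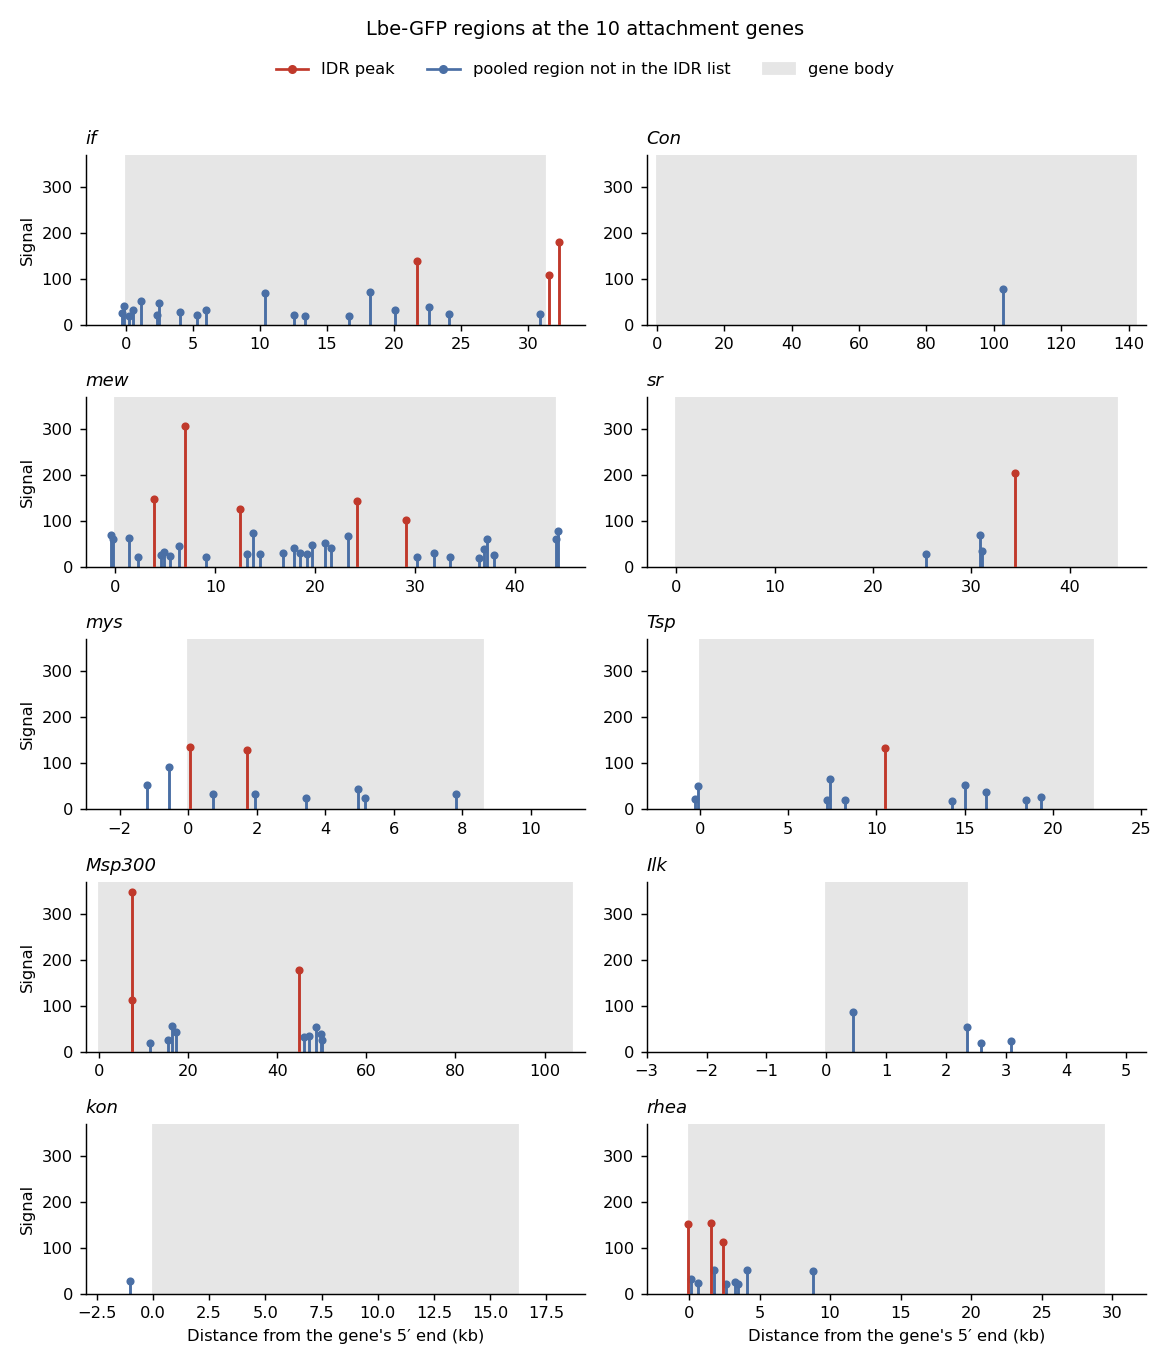
Signal of each pooled region (vertical axis, authors' scale, not stated) against distance from the gene's 5′ end in kb, for the 10 genes, with IDR peaks in red, other pooled regions in blue and the gene body in grey. The 5 mew peaks run along its introns, the 3 rhea peaks sit at its 5′ end, 2 of the 3 if peaks lie past its 3′ end, and kon, Con and Ilk have blue regions alone.

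Among the linkers on the inside of the membrane, rhea, which encodes talin, had 3 IDR peaks, all within 1000 bp of a rhea TSS. The peak upstream of the first TSS (3L, 8544848 to 8544949, signal 151, rank 2231) had its summit 100 bp before it, and ranked 2175 in replicate 1 and 3342 in replicate 2. Its window held TATCGATA, TAATTA and CACACA. The next peak (8546362 to 8546771, signal 154, rank 2131) lay 108 bp before a second TSS, at rank 4559 in replicate 1 and 1065 in replicate 2. The third (8547185 to 8547594, signal 113, rank 3832) lay in the first intron, 715 bp after that TSS, at rank 3422 in replicate 1 and 9129 in replicate 2. Both peaks ahead of a TSS were thus among the 4753 strongest regions of each replicate, and the intronic one of replicate 1 alone.

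Ilk, which encodes integrin-linked kinase, had no IDR peak. Its strongest pooled region (3L, 21217147 to 21217556) had a signal of 86.1, rank 5855 and a −log10 q-value of 3.37, with its summit 451 bp into the gene. The strongest replicate 1 region had its summit 479 bp into the gene, at rank 5084. The strongest replicate 2 region was a different one, past the 3′ end (summit 21219253, rank 10370). Ilk is the shortest gene of the list at 2.34 kb.

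Msp300 encodes a giant nesprin that joins muscle nuclei to the cytoskeleton and acts at muscle attachments, and it had the strongest peak of the set. That peak (2L, 5108090 to 5108302, signal 348, rank 356) had its summit 298 bp before an internal TSS at 5108512, 7.34 kb into the gene. It ranked 310 in replicate 1 and 493 in replicate 2. A second peak lay next to it (5108319 to 5108467, signal 113, rank 3824), with its summit 95 bp before the same TSS. Both peaks were matched by 1 and the same replicate 2 region (summit 5108373), and in replicate 1 the second had only a region of rank 26258. Their replicate 2 support is thus a single region, and they are counted as separate peaks in the shares given later. The third peak (5145769 to 5145919, signal 177, rank 1582) lay 45.0 kb into the gene, 515 bp before another internal TSS at 5146386 and so just outside the 500 bp used for promoters. It ranked 1543 in replicate 1 and 2708 in replicate 2.

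On the tendon side, sr encodes Stripe, the Egr-type transcription factor that specifies tendon cells. Its single IDR peak (3R, 18125137 to 18125333, signal 205, rank 1199) lay in an intron, 3181 bp downstream of the second of its annotated TSSs. It ranked 1702 in replicate 1 and 1025 in replicate 2, and both replicate summits were within 26 bp of the IDR summit. Tsp encodes thrombospondin, a matrix ligand of alphaPS2 secreted by tendon cells. Its single peak (2L, 6698376 to 6698785, signal 133, rank 2853) lay in an intron, 9188 bp from the nearest Tsp TSS, and ranked 3358 in replicate 1 and 3331 in replicate 2. Of the printed windows, that of Tsp held the most words, 4 of the 10.

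The muscle surface genes kon and Con had no IDR peak. Kon-tiki, the product of kon, is a transmembrane protein that helps muscles reach their tendons. Its strongest pooled region ranked lowest of the 10 genes. The gene had 1 pooled region (2L, 18504800 to 18505209, signal 27.4, rank 22233, −log10 q-value 0.39), 2 regions in replicate 1, of which the stronger ranked 19238, and 0 in the replicate 2 list. Con encodes Connectin, a leucine-rich repeat adhesion protein of a subset of muscles and their motor neurons, and at 142 kb it is the longest gene of the list. It had 1 pooled region (3L, 4976196 to 4976605, signal 77, rank 6911, −log10 q-value 2.86), 225 bp from an internal TSS. The same place ranked 4551 in replicate 2, inside the 4753 strongest, but 12222 in replicate 1.

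**Figure D2:**
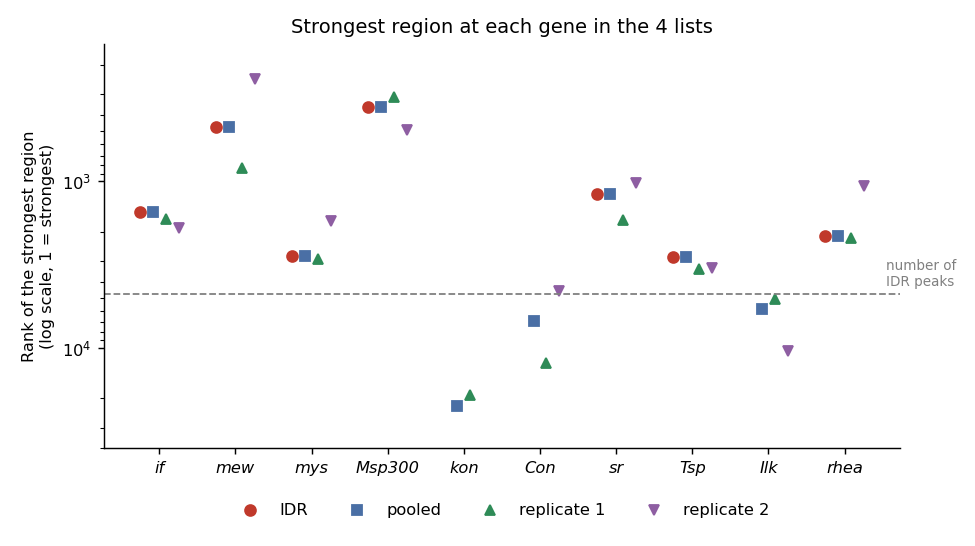
Rank of the strongest region at each gene (vertical axis, log scale, strongest at the top) in the IDR, pooled, replicate 1 and replicate 2 lists; the dashed line is the number of IDR peaks, 4753. Msp300 and mew lie highest, at IDR ranks 356 and 470, while kon, Con and Ilk have no IDR point, and kon has no replicate 2 point. Where a gene has an IDR point, its pooled rank is the same, because the IDR peaks are the 4753 strongest pooled regions.

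The listed genes had peaks more often than all genes, and they are long. Of the 10, 7 had an IDR summit (70%), against 35.5% of all protein-coding genes. The share rises with gene length, from 18.9% below 1 kb to 54.5% between 20 and 50 kb, and 8 of the 10 are at least 10 kb long; 6 of these 8 had a summit, against 52.7% of protein-coding genes of that length. In the gene body alone it was again 6 of the 8, against 38.4%. At least 3 IDR summits were counted at 4 of the 10 genes (if, mew, Msp300 and rhea), all of them long, against 4.97% of all protein-coding genes and 19% of those of at least 10 kb. That count fell to 2 genes in the gene body alone and by nearest TSS, and to 0 in the upper 2376 ranks. The Msp300 count includes both of its neighbouring peaks. No test was made of these shares, since the list was drawn up with results of these data known.

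Per length of sequence the peaks were about as dense as elsewhere. The windows of the 10 genes covered 487 kb and held 0.369 IDR peaks per 10 kb, against 0.355 per 10 kb of the chromosome arms. The genes spread widely around this value. The density was 1.59 at mys, 1.04 at mew, 0.898 at rhea and 0.851 at if, 0.38 at Tsp, 0.272 at Msp300 and 0.205 at sr, and 0 at kon, Con and Ilk. The longest gene, Con, alone made up 146276 bp of the windows without a peak.

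**Figure D3:**
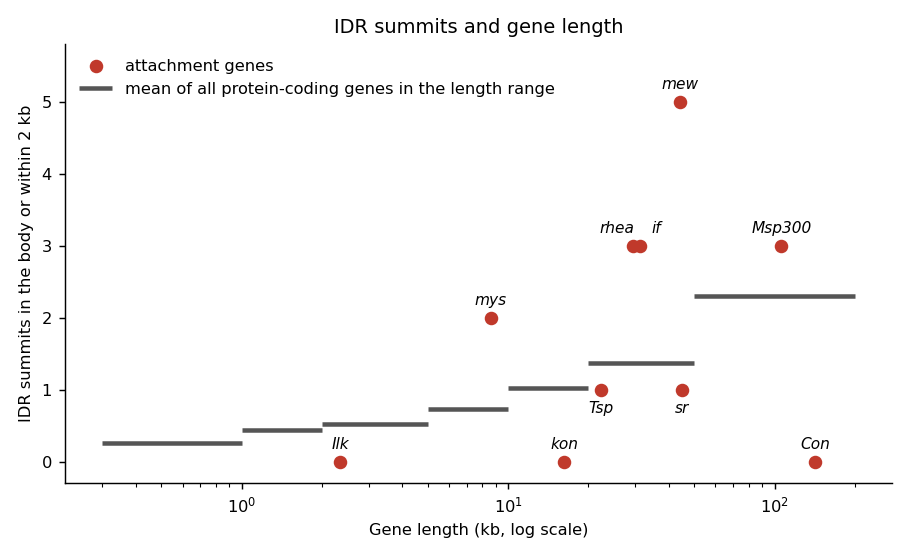
Number of IDR summits in the gene body or within 2 kb (vertical axis) against gene length in kb (log scale) for the 10 genes (red points), with the mean over all protein-coding genes in each length range (grey lines). The points of mys, rhea, if, mew and Msp300 lie above the mean of their range and those of Ilk, kon, Tsp, sr and Con below it.

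The replicate lists taken singly gave similar counts. One of the 4753 strongest regions lay at 7 of the 10 genes in replicate 1, against 37.5% of all protein-coding genes, and at 8 of the 10 in replicate 2, against 32.6%. The additional gene in replicate 2 was Con. Any pooled region, however weak, was found at all 10 genes, against 62.4% of all protein-coding genes. For these lists the shares among genes of at least 10 kb were not computed, and 8 of the 10 genes are that long. In all, 110 pooled regions, 103 replicate 1 regions and 95 replicate 2 regions lay at the 10 genes, of which 34, 28 and 33 were at mew.

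The nearest summit in each replicate was within 200 bp and among the 4753 strongest for 13 of the 18 IDR peaks. This was 72.2% (95% Wilson interval 49.1 to 87.5), against 57% of all IDR peaks. The interval covers the counting of peaks only, and the share of all peaks lies inside it. Replicate 1 alone supported the weaker goe promoter peak at if and the rhea intron peak. By nearest summit, replicate 2 alone supported the mys promoter peak and the second Msp300 peak, and neither replicate supported the weakest mew peak. Replicate 2 gave the better rank for 9 of the 18 peaks, against 39% of all IDR peaks. Both replicate summits lay within 100 bp of the IDR summit at 16 of the 18.

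**Figure D4:**
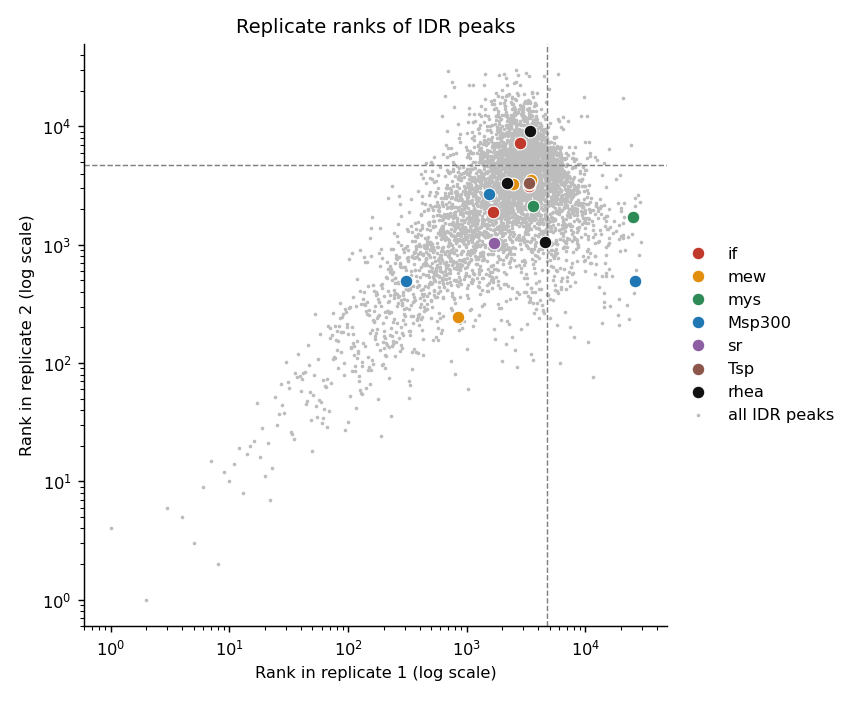
Rank of each IDR peak in replicate 2 (vertical axis) against its rank in replicate 1 (horizontal axis), both on log scales, for 17 peaks at the listed genes (coloured by gene, some overlapping) and all IDR peaks matched in both lists (grey); dashed lines mark rank 4753. The Msp300 and mew peaks at lower left are strong in both replicates, and 1 mys and 1 Msp300 peak at far right rank 25260 and 26258 in replicate 1.

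The peaks were of middling strength. Signals ran from 103 to 348 with a median of 141, against a median of 147 over all IDR peaks, and 8 of the 18 were above 147. Of the 18, 2, at Msp300 and mew, exceeded 206, the upper quartile of all peaks. A and T made up 43.8 to 73.1% of the bases within 100 bp of the summits, with a median of 60.9%, against 64.2% over all IDR peaks. The lowest value was that of the rhea peak ahead of the second TSS and the highest that of a mew intron peak.

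Promoters were less common here than in the list as a whole. Within 500 bp of any TSS lay 6 of the 18 summits (33.3%, 95% Wilson interval 16.3 to 56.3), against 55.3% of all IDR peaks, and only 5 of these were at a TSS of the gene itself. The remaining 12 summits (66.7%, 43.7 to 83.7) were in introns, against 30.8% of all IDR peaks, and 11 of them in introns of the listed gene. Outside promoters, none lay in a UTR, a coding exon or between genes, and 8 of the 18 were over 5000 bp from every TSS of their gene. Of the 10 genes 8 are at least 10 kb long, and the part of gene length in these shares was not tested. The 18 peaks were also taken only in or near genes, whereas 11.3% of all IDR peaks lay between genes. The promoter share of all peaks lies inside the interval of the 18 peaks, whereas the intron share lies below its interval. These intervals cover the counting of peaks only and treat peaks of the same gene as separate. With such a rule of choice they cannot decide whether introns are favoured at these genes.

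For each of the 10 words, the share of all IDR peaks that hold it lay inside the 95% interval of the 18 peaks. The homeodomain core lay within 100 bp of 3 of the 18 summits (16.7%, 95% Wilson interval 5.84 to 39.2), against 15.6% of all IDR peaks, at 2 mew introns and the first rhea promoter. Its relative TAACTA lay at 2 of the 18 (11.1%), against 11.4%, at Tsp and in a mew intron that also held the core. The GAGA factor repeat lay at 3 peaks (16.7%), against 15%, and the other repeat at 5 peaks (27.8%), against 17.3%. The E-box lay at 3 peaks (16.7%), against 11%, the serpent site at 2 peaks (11.1%), against 13.3%, and the replication-related element at 1 peak (5.56%), against 5.05%. The Zelda site, in 2 mew introns (11.1%, 3.1 to 32.8), was at 4.08% of all IDR peaks. The Tinman site, at Tsp and Msp300 (11.1%, 3.1 to 32.8), was at 3.6%, and the core promoter motif, at 0 of the 18 (0 to 17.6), was at 2.76%. A match describes the sequence and does not show a bound site.

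Other genes of attachment and integrin adhesion were drawn from a list of 35 made by function. An IDR summit in the gene body or within 2 kb was present at 22 of them (62.9%), against 35.5% of all protein-coding genes. In the gene body alone it was present at 13 of the 35, against 12.1% of all protein-coding genes and 38.4% of those of at least 10 kb. Of the 35 genes, 17 are at least 10 kb long, and 16 of these had a summit within 2 kb, against 52.7% of protein-coding genes of that length. At 12 of the 22 the strongest summit was nearest to a TSS of the gene itself. Of the 4 further integrin subunit genes, scb, which encodes alphaPS3, had 2 summits, the stronger at its promoter with a signal of 224 and rank 985. ItgaPS4, ItgaPS5 and Itgbn had none.

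Of 11 genes of the adhesion complex, 8 had a summit (72.7%), against 35.5% of all protein-coding genes. The strongest were at wech (signal 412), Pax, which encodes paxillin (241), Vinc, which encodes vinculin (212), and CAP, a vinculin-binding adaptor (183). Those of Pax, Vinc and CAP lay at their own promoters, and that of wech was nearer to the TSS of Aldh-III. Of 10 matrix genes, 4 had a summit (40%), near the 35.5% of all protein-coding genes. They were the collagen IV gene vkg (143), the laminin genes LanA (139) and LanB1 (136), and the perlecan gene trol (106). The vkg and LanB1 summits lay at the promoters of the neighbours SelT and CG7115. Of these summits only that of vkg was supported by both replicates. Those of LanA and LanB1 were supported by replicate 2 alone, and that of trol by replicate 1 alone.

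Of 10 further genes of tendon and attachment, 9 of which are at least 10 kb long, 9 had a summit, 18 summits in all. These 9 were the long genes, a class in which the share over all protein-coding genes was 52.7%. The strongest was at a promoter of the spectraplakin gene shot, which ties tendon microtubules to the membrane (signal 466, rank 162), and exceeded every peak of the 10 listed genes. Next were Grip (217), Lrt, which encodes a leucine-rich tendon protein (195), at its promoter, and the dystroglycan gene Dg (167). The Grip summit was nearest to the TSS of CG5966. The tendon factor gene tx had none.

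The count was sensitive to the 2 kb edge at single genes. The counted summit farthest outside its gene body was that at if, 1076 bp past its 3′ end (signal 180). The closest ones left out were 2344 bp past the 3′ end of Tsp (signal 144, rank 2483, nearest the TSS of Nhe3) and 3102 bp upstream of mys (signal 101, rank 4611, nearest that of fs(1)h). For the genes without an IDR peak, the nearest one lay 10.1 kb from kon, 34.7 kb from Ilk and 55.1 kb from Con.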

How the data were processed

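ChIP-seq regions from 2 biological replicates of Lbe-GFP embryos (fragments of 200 to 800 bp, per the labels) were used as deposited in dm6. One list was called on each replicate and 1 on both pooled, background regions included, against a control. The IDR peaks derive from these 3 lists, per the readme deposited with them. Which aligner and caller were run is not given in the sources used here. The authors deposited for each region a signal and a q-value as −log10; the −log10 q-value is the same for all IDR peaks, so ranks use the signal. The dm3 lists were not used, since positions were not converted.

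Regions on 2L, 2R, 3L, 3R, 4 and X were kept (4753 IDR peaks, 29968 pooled, 29967 in each replicate) and ranked by signal. The IDR peaks were the 4753 strongest of the pooled regions, so these lists are not independent. Summits are the start plus the deposited offset. Genes, transcripts and TSSs of protein-coding and non-coding RNA genes came from Ensembl release 115 (BDGP6.54), the bases from the RefSeq release 6 genome, with region ends within its chromosome lengths. A replicate matched an IDR peak by its nearest summit within 200 bp, and counted as support at rank 4753 or better. Promoters are within 500 bp of any TSS, words within 100 bp of the summit. Shares have 95% Wilson intervals.

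No significance test was run: the genes, the lists and the words were chosen with earlier results of these data known, and members are not replicates. All 10 genes and all their IDR peaks are named; of the other genes, up to 4 per group by signal. Counting and matching were tested on simulated data with planted summits. Python 3.11.15, pandas 2.3.3, numpy 2.4.6, scipy 1.17.1 and matplotlib 3.10.9 were used.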

Additional observations from a re-analysis of the deposited data

How the results depend on the processing

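The number of listed genes with an IDR summit stayed between 5 and 8 of the 10 under the alternatives run. It was 7 with the gene body alone, with windows of 1 or 5 kb and with any base of the region in the window. The strongest pooled regions also gave 7. That count could not differ, because the 4753 IDR peaks are the 4753 strongest pooled regions. The count of genes varied under the other settings. It was 6 by nearest TSS and 5 in the upper 2376 ranks. It was 8 without replicate 1 and 7 without replicate 2. Counting only summits in no other gene, chosen after seeing the data, also gave 7. The share of all protein-coding genes changed with the window. It was 12.1% in the gene body alone, 30.2% within 1 kb, 35.5% within 2 kb and 47.4% within 5 kb. No such share was computed by nearest TSS or in the upper ranks. Of 100 summit counts at single genes under these alternatives, 10 moved by over 1.5 times. The 100 include those from the strongest pooled regions, which could not move. The count at if fell to 1 in the gene body alone and to 0 by nearest TSS, and that at mew to 2 by nearest TSS. Support by both replicates was 94.4% with a match of any rank in the replicate lists, against 72.2%. Of all IDR peaks, 98.9% had such a match in replicate 1 and 95.7% in replicate 2. Support by both was 66.7% within 100 bp and 77.8% with the strongest region within 200 bp, which was also chosen after seeing the data. Promoter summits were 27.8% within 200 bp or at own TSSs alone, 50% within 1000 bp and 37.5% in the upper ranks. The share of all IDR peaks was not computed for these promoter settings. TAATTA was at 33.3% of summits within 200 bp, a wider window for which the share of all IDR peaks was not computed. In the gene body alone, 13 of the other 35 genes had a summit, against 12.1% of all protein-coding genes and 38.4% of the long ones. Within 2 kb the count was 22 of the 35, against 35.5% and 52.7%. With either replicate left out it was from 20 to 23. No paired analysis was possible because there is 1 group. Without read counts, depth limits cannot be given.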

Other observations

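Some strong regions of replicate 2 at the listed genes had no IDR summit within 200 bp. There were 3 of these among 17, against 0 among 16 in replicate 1. They lay at a promoter upstream of mys (X, summit 8061151, rank 1844), in an intron of Msp300 (2L, summit 5145640, rank 4279), and at the internal Con promoter (3L, summit 4976393, rank 4551). The Msp300 region lay just past the match distance from an IDR summit (5145871). A stronger replicate 2 region (summit 5145914, rank 2708) matched that IDR summit.

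The replicates differed in how many regions they listed at some of the other genes. Zyx, the zyxin gene on chromosome 4, had 17 regions in replicate 1 and 1 in replicate 2, and how, which encodes an RNA-binding protein of muscle and tendon differentiation, had 23 and 7. Of the how regions, 0 of the replicate 1 set and 2 of the replicate 2 set were among the 4753 strongest. At Pax the numbers were 17 and 7. Others had more in replicate 2, with 10 and 18 at slow, 7 and 12 at drl and 8 and 13 at Grip, and p130CAS had 22 in each. Of the 35 genes, 12 had more regions in replicate 1, 16 had more in replicate 2 and 7 had equal numbers; those named were chosen after their values were seen. These lists reach far down in signal, and the cause of the difference was not tested.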
